A study of Homo sapiens
Mus musculus and Mus musculus and Homo sapiens with 16 samples.

Results

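Proliferins, encoded in the mouse by the Prl2c genes, are secreted glycoproteins of the prolactin and growth hormone family. The family spread by gene duplication in rodents and most of its members are known from the placenta, where trophoblast giant cells release proliferin. Proliferin was first found in mouse fibroblasts stimulated with serum or growth factors, it carries mannose-6-phosphate and binds the mannose-6-phosphate receptor Igf2r, and it is known to promote the growth of blood vessels. The genes described here were taken by name from the mouse count table: every gene whose symbol starts with Prl2c, which gave 4 genes (Prl2c1, Prl2c2, Prl2c3 and Prl2c5) of 49671 listed and of 26 listed genes of the prolactin family. Prl2c2 and Prl2c3 carried nearly all of the counts. These genes were singled out because of the difference between the culture conditions described below, so that difference is given as a description, with no p-value, and their place among the called genes is given for orientation only.

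The study asked how mantle cell lymphoma cells adhere to stroma, and the stromal side of its cocultures is what bears on these genes. MS-5, a stromal cell line from mouse bone marrow, was grown alone (4 libraries, MS-5 alone) or in coculture with Rec-1 (REC-1), a human mantle cell lymphoma line. From the coculture, the adherent fraction, which holds the MS-5 layer together with the REC-1 cells attached to it, was taken after 24 h (4 libraries, Adh), and RNA with poly(A) tails was sequenced. Both groups were made from the same MS-5 line, and the labels name no drug, knockdown or genetic change in either. The study describes its 4 replicates of the lymphoma cell fractions, Adh included, as independent experiments. It does not say this of MS-5 alone. The REC-1 libraries of the other groups among the 16 in the series were not used here.

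Mouse counts per library ranged from 10097555 to 17397651 in MS-5 alone and from 29495404 to 34615602 in Adh, and human counts made up 28.2%, 26.0%, 18.3% and 20.2% of both species' counts in Adh replicates 1 to 4. Stromal markers were present at a summed level of 9550 to 10214 CPM (counts scaled to the library's mouse total) in MS-5 alone and 9443 to 10939 CPM in Adh, although 3 of the 12 markers (Dcn, Thy1 and Lum) had no count in any of the 8 libraries. Of 11 trophoblast markers, 8 were at 0 in every library, and their sum stayed between 0.313 and 0.597 CPM alone and between 0.148 and 0.518 CPM in Adh. Of 10 B cell and leukocyte markers, 6 were at 0 throughout, Ptprc and Pax5 included, and the sum was 0.139 to 0.398 CPM alone and 0.118 to 0.489 CPM in Adh. Of 6 endothelial markers, 4 were at 0 throughout, with a sum of 0 to 0.116 CPM alone and 0.0575 to 0.177 CPM in Adh. Where bulk RNA is compared, fewer cells that make a transcript and less of it per cell cannot be told apart.

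Prl2c3 and Prl2c2 are nearly the same sequence, which matters for how their reads were counted. In the GENCODE release 21 mouse annotation (GRCm38), Prl2c3 (ENSMUSG00000056457) lies on the minus strand at chr13:12790816-12800079, Prl2c2 (ENSMUSG00000079092) on the minus strand at chr13:12996125-13005383, and Prl2c5 (ENSMUSG00000055360) on the plus strand at chr13:13182715-13191923. Prl2c1 (ENSMUSG00000062551) lies 15.1 Mb from Prl2c3 on the plus strand at chr13:27849342-27857788. The principal transcript of each gene has 5 exons. The coding sequence, with its stop codon, is 675 bases long in Prl2c2 and in Prl2c3, 669 in Prl2c5 and 681 in Prl2c1. Prl2c2 and Prl2c3 were identical at 672 of 675 coding positions (99.6%), with the substitutions T14C, C200A and T319G, written as the Prl2c2 base, the coding position from 1 at the first base of the start codon, and the Prl2c3 base. Prl2c5 was 96.1% identical to Prl2c2 and 96.0% to Prl2c3, and Prl2c1 was 91.6%, 91.4% and 93.1% identical to Prl2c2, Prl2c3 and Prl2c5.

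The stretches around the 3 differing coding bases are shown because, in the reference, reads over them can separate the counts of Prl2c2 and Prl2c3. The sequence of MS-5 itself at these bases was not examined. Outside the coding sequence, the transcripts also differ by 1 substitution and 10 gap positions in the aligned 5′ UTR and by 5 gap positions in the 3′ UTR. The sequences are from the GENCODE transcripts, 5′ to 3′ on the coding strand. In Prl2c2 and Prl2c3 the capital is the base that differs between them, and in Prl2c5 capitals mark that position at the first site and every base unlike Prl2c3 at the others. The first stretch covers coding positions 1 to 44. Its differing base lies in exon 1, at position 13005313 of chromosome 13 in Prl2c2 and 12799999 in Prl2c3.
Prl2c2: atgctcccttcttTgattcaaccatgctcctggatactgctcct
Prl2c3: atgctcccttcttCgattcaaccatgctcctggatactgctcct
Prl2c5: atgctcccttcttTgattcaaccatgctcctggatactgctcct
The next stretch covers coding positions 170 to 230, with the differing base in exon 2, at 13002141 in Prl2c2 and 12796838 in Prl2c3.
Prl2c2: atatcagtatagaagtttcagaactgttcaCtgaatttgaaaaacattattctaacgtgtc
Prl2c3: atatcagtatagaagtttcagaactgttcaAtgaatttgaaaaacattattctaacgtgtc
Prl2c5: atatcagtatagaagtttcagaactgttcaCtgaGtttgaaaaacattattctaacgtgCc
The last covers coding positions 289 to 349, with the differing base in exon 4, at 12997464 in Prl2c2 and 12792171 in Prl2c3.
Prl2c2: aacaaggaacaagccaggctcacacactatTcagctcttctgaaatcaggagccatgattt
Prl2c3: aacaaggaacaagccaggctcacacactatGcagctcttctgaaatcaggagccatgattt
Prl2c5: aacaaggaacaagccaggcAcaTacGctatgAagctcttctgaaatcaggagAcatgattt
Prl2c5 has the Prl2c2 base at the first of these 3 positions and at the second, and the Prl2c3 base at the last.

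The authors aligned read pairs and kept those that mapped to a single place, so a pair that fits more than 1 of these genes was not counted, while a mate in shared sequence can be placed by its partner. When each transcript was cut into every window as long as 1 sequenced read, 489 of 742 windows of Prl2c2 (65.9%) and 469 of 757 of Prl2c3 (62.0%) were also found in a transcript of another annotated gene. For both of them the other genes included the pseudogene Gm7040 (chr13:13320941-13323370, minus strand), which was not among the genes the authors counted. Prl2c5 shared only 63 of 744 windows (8.5%) and Prl2c1 none of 581. With windows as long as both mates of a pair end to end, 58.7% of Prl2c2 and 59.6% of Prl2c3 was found in 1 gene alone. The counts of Prl2c2 and Prl2c3 thus come from part of each transcript in both groups, and their levels are those of the uniquely mapped part. The sum over the Prl2c genes does not depend on how unique reads were divided between the copies.

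**Figure D1:**
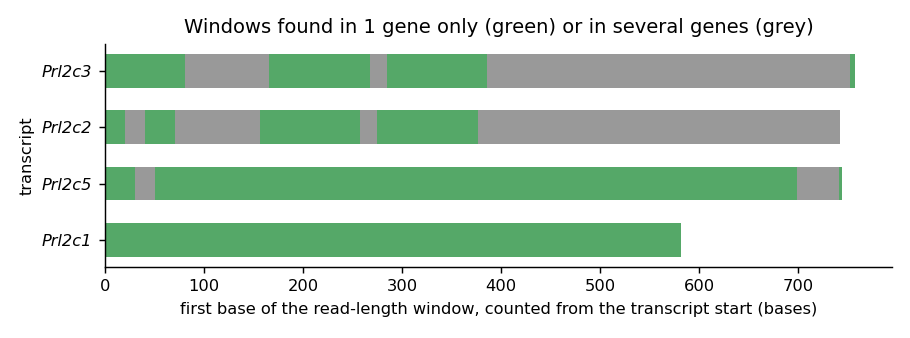
Windows of 1 read length along the principal transcript of each Prl2c gene, placed by their first base (x axis, bases from the transcript start). Green windows occur in 1 annotated gene only and grey windows in several; 34.1% of Prl2c2 and 38.0% of Prl2c3 is green, against 91.5% of Prl2c5 and all of Prl2c1.

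Prl2c3 was the most abundant proliferin transcript and was lower in every coculture library than in any library of MS-5 alone. Its level was 551, 640, 531 and 494 CPM in MS-5 alone replicates 1 to 4 and 289, 266, 216 and 196 CPM in Adh replicates 1 to 4. The lowest library alone was thus well above the highest in coculture, and the highest of all was MS-5 alone replicate 2. The mean was 554 ± 61.9 CPM (SD, n = 4) alone and 242 ± 43.1 CPM (SD, n = 4) in coculture. This is a fitted log2 fold change of -1.20 (SE 0.11), or 43.7% of the level alone. These values rest on 6313 to 9178 counts per library alone and 6161 to 9771 in coculture, so the raw counts were alike in libraries whose mouse totals were larger in coculture. With every library thinned to the smallest mouse total, the log2 fold change was -1.21.

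Prl2c2 differed by much the same factor. Its level was 178, 184, 172 and 161 CPM in MS-5 alone replicates 1 to 4 and 79.8, 75.2, 79.6 and 58.2 CPM in Adh replicates 1 to 4. The groups did not overlap, and Adh replicate 4 was the lowest library for Prl2c2 as it was for Prl2c3. The means were 174 ± 9.70 CPM (SD, n = 4) alone and 73.2 ± 10.2 CPM (SD, n = 4) in coculture, a log2 fold change of -1.25 (SE 0.09), or 42.1% of the level alone. The spread alone was small for Prl2c2, while in Prl2c3 the same 4 libraries spread more widely around their mean.

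Prl2c5 was read at a far lower level, from 34 to 60 counts per library alone and 34 to 65 in coculture. It reached 3.77, 3.48, 3.47 and 2.66 CPM in MS-5 alone replicates 1 to 4 and 1.83, 1.5, 1.87 and 1.08 CPM in Adh replicates 1 to 4. Adh replicate 4 was again the lowest library, and MS-5 alone replicate 4, the lowest of its group, was still above each Adh library. The fitted log2 fold change was -1.09 (SE 0.24), from 3.35 ± 0.477 CPM (SD, n = 4) to 1.57 ± 0.366 CPM (SD, n = 4). Counting error is a larger part of the spread here, since the counts are so few.

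Prl2c1 had 0 counts in each of the 8 libraries. A count of 0 allows up to 3 counts, which is 0.174 to 0.299 CPM in the libraries of MS-5 alone and 0.0863 to 0.102 CPM in the Adh libraries. This floor covers counting error only. It takes each count as independent, so it would be higher if both mates of a pair were counted. All 581 windows of its principal transcript were found in no other gene. That transcript has 681 bases, all of them coding, while the merged exons of the gene have 852. A Prl2c1 transcript other than the principal one did share windows of this length with Prl2c5.

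**Figure D2:**
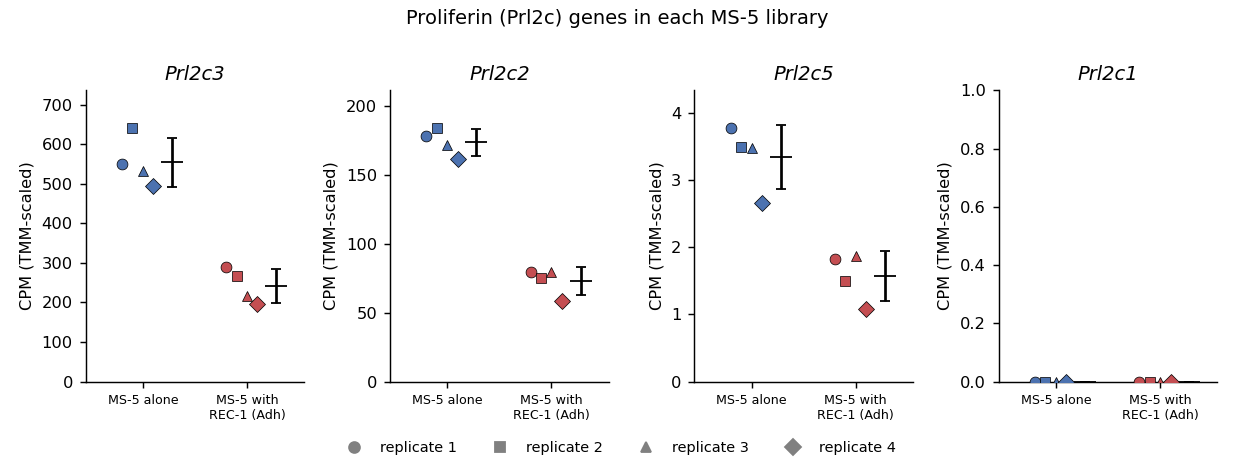
Level of each Prl2c gene in the 8 libraries (y axis, TMM-scaled CPM, a separate scale for each gene), with MS-5 alone in blue and MS-5 from the coculture (Adh) in red, marker shapes for replicate numbers, and mean ± SD at the right of each group. For Prl2c3, Prl2c2 and Prl2c5 the groups do not overlap, and Prl2c1 is at 0 in all 8 libraries.

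Summed over the Prl2c genes, the level was 733, 827, 707 and 658 CPM in MS-5 alone replicates 1 to 4 and 370, 343, 298 and 255 CPM in Adh replicates 1 to 4. The sum went from 731 ± 71.2 CPM to 316 ± 50.7 CPM (SD, n = 4 each), a log2 fold change of -1.21 (SE 0.10), or 2.31-fold lower. Leaving out any 1 library kept it between -1.29 and -1.12. In the coculture the sum was highest in replicate 1 and lowest in replicate 4, while the human share of counts was 28.2%, 26.0%, 18.3% and 20.2% in the same libraries. The part of the human share in the level was not tested.

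Across the mouse transcriptome few genes differed between these groups. Of 12201 genes tested with edgeR's quasi-likelihood test, 25 were called (0.205%), that is, had a Benjamini-Hochberg adjusted p no higher than 0.05 together with a change of 1.5-fold or more, 5 of them higher in coculture (0.041%) and 20 lower (0.164%). Of the 4 Prl2c genes, 3 passed the filter on low counts, and all 3 were among the genes called lower. Nothing is read from that count, because the genes were chosen from this contrast. The call of Prl2c5 was lost when counts were thinned and when any 1 of the 8 libraries was left out. In the same way, the libraries of the groups did not overlap for 822 of the tested genes (6.74%), with coculture lower for 449 (3.68%) and higher for 373 (3.06%).

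By size of the fall, Prl2c2 stood 14th, Prl2c3 19th and Prl2c5 29th among the 12201 tested genes. Among the 8899 genes with a mean of at least 10 CPM in either group, Prl2c2 was 2nd and Prl2c3 3rd. Only Cxcl5, a neutrophil chemokine named here after its value was seen, was fitted lower than both.

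**Figure D3:**
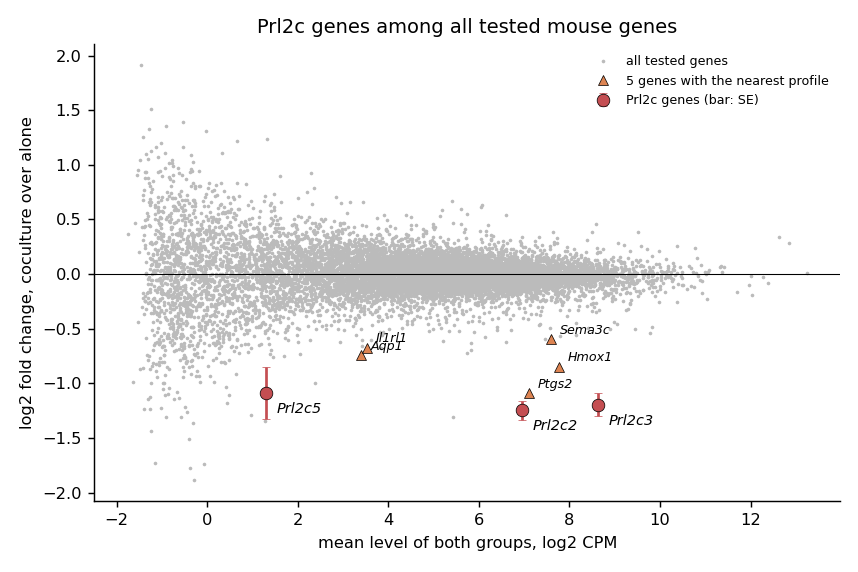
Fitted log2 fold change between coculture and MS-5 alone (y axis) against the mean level of both groups (x axis, log2 CPM) for the 12201 tested mouse genes in grey, the Prl2c genes in red with bars of 1 SE, and the 5 genes with the most similar profile as orange triangles. Prl2c2 (-1.25) and Prl2c3 (-1.20) lie far below the band of well-expressed genes, and Prl2c5 (-1.09) sits where weakly expressed genes scatter widely.

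To compare the copies with one another, CPM was divided by the merged length of all annotated exons of each gene, in kilobases. On this scale, Prl2c3 was at 407 ± 45.5 alone and 178 ± 31.7 CPM per kb in coculture (SD, n = 4), Prl2c2 at 160 ± 8.90 and 67.2 ± 9.37, and Prl2c5 at 2.84 ± 0.405 and 1.33 ± 0.311. Ranked by level per length among 12185 tested genes with an exon length, Prl2c3 was between 50th and 81st in the libraries of MS-5 alone and between 163rd and 284th in coculture. Prl2c2 went from between 227th and 283rd to between 625th and 911th. Proliferin was thus still among the well-expressed genes of MS-5 in coculture. Pairs that fit more than 1 gene were not counted, while the whole exon length was used. The levels and ranks of Prl2c2 and Prl2c3 per length may therefore be too low.

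The copies were in much the same proportions in both groups. Prl2c2 supplied 23.9 ± 1.09% of the Prl2c counts alone and 23.3 ± 2.38% in coculture, Prl2c3 75.7 ± 1.11% and 76.2 ± 2.46%, and Prl2c5 0.458 ± 0.0531% and 0.496 ± 0.0935% (SD, n = 4). Per length, the ratio of Prl2c2 to Prl2c3 was 0.404, 0.359, 0.404 and 0.408 in MS-5 alone replicates 1 to 4 and 0.345, 0.352, 0.460 and 0.371 in Adh replicates 1 to 4. The group means, 0.394 ± 0.0234 and 0.382 ± 0.0529, differed by less than the spread within either group. MS-5 alone replicate 2 had the lowest ratio of its group and also the highest Prl2c3, whereas in Adh replicate 3 the ratio was the highest of all, with Prl2c2 near the top of its group and Prl2c3 below the group mean. As part of each transcript is shared, the ratio describes the uniquely mapped part only.

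The rest of the prolactin family was almost silent in MS-5. Of the other 22 family genes listed, 16 had no count in any of the 8 libraries, and the remaining 6 together had 51 counts, against 80431 for the Prl2c genes. Prl8a9, a placental member of the family, had 8, 0, 4 and 2 counts in MS-5 alone replicates 1 to 4 and 2, 0, 10 and 2 counts in Adh replicates 1 to 4. Prl3d2, a placental lactogen gene, had none in MS-5 alone and 0, 0, 4 and 6 counts in Adh. Such counts are too few to tell the groups apart. Prl itself, the pituitary hormone, was at 0 throughout.

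The neighbouring genes on chromosome 13 were compared with the Prl2c genes, as they share the locus but were not chosen by the name rule. Within 250 kb on either side of the stretch from Prl2c3 to Prl2c5, the annotation lists 42 genes. Of these, 28 are pseudogenes and 6 code for protein, and 16 of the 42 were among the genes the authors counted. Prl2c2 starts 205 kb and Prl2c5 392 kb from Prl2c3, and 8 genes of the region, the 3 Prl2c genes included, were tested. None of the other 5 was called, beside 0.205% of all tested genes, a share at which no call in so few genes is the usual count. Ero1lb, an oxidoreductase of the endoplasmic reticulum, had a log2 fold change of 0.08 (SE 0.16, adjusted p = 0.906, edgeR). Gpr137b, a lysosomal membrane protein, had a log2 fold change of -0.46 (SE 0.10, adjusted p = 0.0486), from 26.5 ± 1.09 to 19.3 ± 2.56 CPM, and the fold was under the minimum for a call. Nid1, a basement membrane protein and the most abundant of these neighbours, had -0.20 (SE 0.06, adjusted p = 0.179), and the pseudogenes Gpr137b-ps and Gm2423 had -0.15 (adjusted p = 0.748) and -0.51 (adjusted p = 0.626). All of these values are smaller in size than those of the Prl2c genes, although no test of that difference was made. The region was chosen by position with the values at hand.

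**Figure D4:**
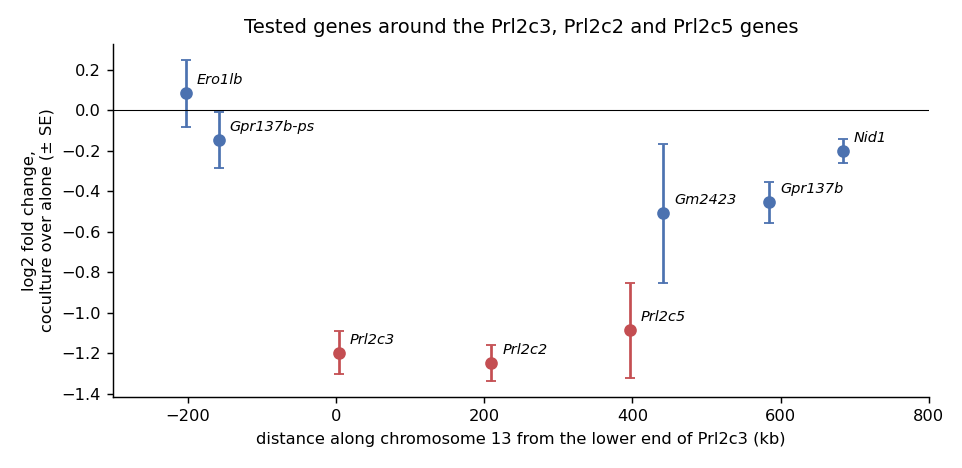
Fitted log2 fold change between coculture and MS-5 alone (y axis, bars of 1 SE) for the 8 tested genes around the Prl2c genes, placed by the middle of each gene (x axis, kb along chromosome 13 from the lower end of Prl2c3). The Prl2c genes in red lie between -1.25 and -1.09, and the other genes in blue between -0.51 and 0.08.

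Next, the genes whose profile over the 8 libraries was most like that of the summed Prl2c counts were sought, by the root mean square (RMS) difference of log2 CPM centred on each gene's mean. On this measure the members themselves were 0.03 (Prl2c3) and 0.10 (Prl2c2) from the sum that holds them. Among 8897 other genes at 10 CPM or more in a group, the nearest was Hmox1, the heme-degrading heme oxygenase 1, at an RMS difference of 0.20 log2 units. Hmox1 was at 280 ± 25.0 CPM alone and 155 ± 22.3 CPM in coculture (SD, n = 4), a log2 fold change of -0.85. Ptgs2, the inducible cyclooxygenase of prostaglandin synthesis, followed at a difference of 0.21, with 187 ± 21.4 CPM alone, 87.9 ± 13.5 CPM in coculture and a log2 fold change of -1.09.

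The next 3 genes were farther away. Il1rl1, the receptor of interleukin 33, was at an RMS difference of 0.31, Aqp1, a water channel, at 0.32 and Sema3c, a secreted semaphorin, at 0.32. Their log2 fold changes were -0.68, -0.74 and -0.59. Each of these 5 genes was lower in coculture, and each fold was smaller than that of the Prl2c sum. The order within a group was not the same in all of them. MS-5 alone replicate 2 was the highest library for the Prl2c sum and also for Hmox1, Il1rl1, Aqp1 and Sema3c, while Ptgs2 was highest in MS-5 alone replicate 4. Likeness over 8 libraries in 2 groups is set mostly by the difference between the groups, and is given as a description.

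**Figure D5:**
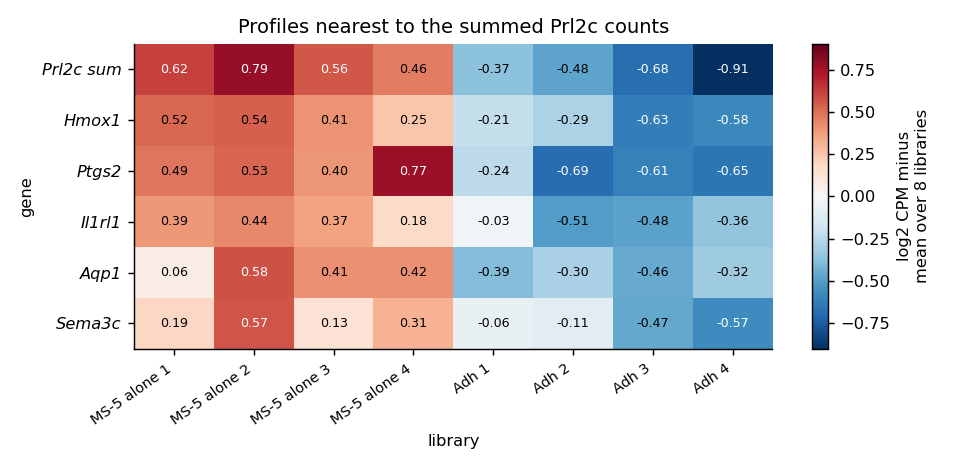
Centred log2 CPM (color and printed value, the level minus the gene's mean over the 8 libraries) for the summed Prl2c counts and the 5 genes with the most similar profile (rows) in each library (columns). Every value is above 0 in MS-5 alone and below 0 in Adh; the Prl2c sum has the lowest value, -0.91, in Adh replicate 4.

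Genes for tagging with mannose-6-phosphate, for its receptors, and for the receptors of prolactin and growth hormone were followed as well. Igf2r, the mannose-6-phosphate receptor that binds proliferin, was level between the groups, at 43.7 ± 2.79 CPM alone and 43.5 ± 4.84 CPM in coculture (SD, n = 4, log2 fold change -0.01, SE 0.09, adjusted p = 0.990, edgeR). Prlr, the prolactin receptor, had no count in any library. Ghr, the growth hormone receptor, was above the libraries of MS-5 alone in every Adh library, at 172 ± 4.85 CPM alone and 207 ± 19.8 CPM in coculture, but did not pass the test (log2 fold change 0.26, SE 0.06, adjusted p = 0.0827). Of the 7 genes for receptors and for tagging with mannose-6-phosphate, 6 were tested and 0 were called by edgeR or by DESeq2, with 1 at an unadjusted p under 0.05. Over all tested genes these shares were 0.205% called and 11.3% at an unadjusted p under 0.05, so counts as low as these are no result about the list. Their median log2 fold change was -0.01, beside -0.00 over all tested genes.

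Proliferin is known as a transcript that rises with growth stimulation in fibroblasts, and therefore genes of the mitogen response and of cell division were set beside it. Of 24 mitogen response genes tested, 0 were called by edgeR or by DESeq2, and 5 were at an unadjusted p under 0.05, 1 with a value above 0 and 4 below. The median log2 fold change of this list was -0.12, and its members ran from -0.48 (Phlda1, adjusted p = 0.0771) to 0.43 (Egr1, adjusted p = 0.217). Of 30 genes of S phase and mitosis tested, 0 were called by edgeR or by DESeq2, and 6 were at an unadjusted p under 0.05, 5 above 0 and 1 below, with a median of 0.07 and a range from -0.20 (Ccnd1) to 0.21 (Bub1). For comparison, 11.3% of all tested genes were at an unadjusted p under 0.05. At 0.205% called over all tested genes, no call is the usual count for lists of this size, and nothing is read from it.

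Other secreted regulators of blood vessel growth made up the last list. Of 27 genes listed, 23 were tested and 0 were called by edgeR or by DESeq2, with 5 at an unadjusted p under 0.05 and a median log2 fold change of 0.01. Over all tested genes 0.205% were called and 11.3% were at an unadjusted p under 0.05. Passing the adjusted p but not the minimum fold were 3 genes, beside 94 of all 12201 at that adjusted p with or without the fold, and they are named here after their values were seen. Cyr61, a matricellular protein that promotes vessel growth, was at 338 ± 43.3 CPM alone and 230 ± 21.8 CPM in Adh (log2 fold change -0.55, adjusted p = 0.00825, edgeR). Thbs2, a thrombospondin that inhibits it, had a log2 fold change of 0.29 (adjusted p = 0.00180), and the chemokine Cxcl12 one of 0.46 (adjusted p = 0.0486). For Cxcl12 the libraries of the groups overlapped, at 321 ± 50.2 CPM alone and 442 ± 57.6 CPM in Adh. Those of Cyr61 and Thbs2 did not overlap. Cyr61 became a call when MS-5 alone replicate 1 (-0.64) or Adh replicate 4 (-0.61) was left out.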

How the data were processed

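The members and gene lists were chosen with earlier results of these data known. The authors used Xenome to sort the read pairs by species, aligned those of the mouse to GRCm38 with STAR 2.5.1b, keeping uniquely mapped reads, and counted them per gene with featureCounts (Subread 1.5.2), and the deposited values are raw counts per gene, neither normalized nor filtered. The submitters' processing notes also name edgeR 3.22.5. Between 71.1% and 78.6% of genes with 1 to 20 counts had an even number, as when both mates of a pair are counted, although the methods speak of fragments, and the depths above may therefore be in reads. The 20 columns of the count tables that belong to other samples were not used, nor were the human columns of the REC-1 groups other than Adh.

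Groups followed the sample labels. Counts of the 4 MS-5 alone and 4 Adh libraries were fitted in R 4.3.3 with edgeR 4.0.16 (filterByExpr, TMM scaling, legacy quasi-likelihood F-test). Calls needed a Benjamini-Hochberg adjusted p no higher than 0.05 and a change of 1.5-fold or more. CPM used TMM-scaled mouse totals. Exon lengths, positions and transcripts came from GENCODE release 21, whereas the authors counted with the annotation of Ensembl release 87. Sequences and windows used the principal transcript of each gene. Levels, ranks and ratios per length used the merged length of all annotated exons of a gene. That length is 1090 bases for Prl2c2 and 1360 for Prl2c3, whose principal transcripts have 842 and 857 bases. Profiles used log2 CPM with a prior count of 2. Scripts were tested on simulated counts. Named are all Prl2c genes, other prolactin family genes with at least 10 counts in all, the 5 genes nearest in profile, Igf2r, Prlr and Ghr, and genes called in a list; other names were chosen after values were seen. Alternatives were DESeq2 1.42.0, other scalings and filters, thinning, the newer quasi-likelihood form, no minimum fold, the replicate number as a block, each library left out in turn and, added after seeing the data, halved counts.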

Additional observations from a re-analysis of the deposited data

Results flagged for a closer look

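Of 30 groups of 4 libraries examined with Dixon's test, where chance gives about 1 in 20, 2 held a library far from the others. The ratio of Prl2c2 to Prl2c3 per length in MS-5 alone was 0.359 in replicate 2, against 0.404 to 0.408 in the other 3 libraries. Replicate 2 was also the library with the highest Prl2c3 level and the fewest mouse counts, 10097555. Ptgs2, a gene close to the Prl2c sum in profile, was at 108 CPM in Adh replicate 1, against 78.9 to 83.4 CPM in the other 3 Adh libraries, and the Prl2c sum was also highest there among the Adh libraries. What set these libraries apart was not tested.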

How the results depend on the processing

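The fitted differences of Prl2c2, Prl2c3 and the Prl2c sum kept their direction under all 17 alternatives and moved little. The widest values came from leaving out a library, from -1.29 to -1.15 for Prl2c2, -1.29 to -1.11 for Prl2c3 and -1.29 to -1.12 for the sum. Prl2c5 ranged more widely, from -1.18 to -0.95 when a library was left out and to -0.80 with thinned counts. Counts halved to allow for mates counted separately left 25 genes called. The ratio of the copies differed between groups by -0.05 (log2 of Adh over alone), from -0.14 to -0.0054 when a library was left out.

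The number of called genes, 25, depended more on the settings. It was 45 with no low-count filter, 45 with the replicate block and 94 with no minimum fold, 33 with DESeq2, and between 8 and 36 when a library was left out, with 8 without MS-5 alone replicate 3, 11 without replicate 4, 13 without replicate 2 and 13 without Adh replicate 3. The list of vessel growth regulators held 1 called gene, Cyr61, with thinned counts, and 0 to 1 when a library was left out. Deviations of libraries with the same replicate number had r = 0.286, 0.0829, 0.0333 and 0.161, all positive. Only 2 of 4 passed a cutoff of 0.1, so the numbers were not used as pairs, though matched cultures remain possible. With the replicate block the values were -1.26 for Prl2c2 (SE 0.06, against 0.09 without it) and -1.21 for Prl2c3 (SE 0.06, against 0.11). The cause of these shifts was not tested. Depth limits Prl2c5 and Prl2c1, and shared sequence the split between Prl2c2 and Prl2c3.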
